A study of Mus musculus with 6 samples.

Results

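The 10 genes described here encode parts of the basement membrane and of the complex that anchors epithelia to it: the collagen IV chains Col4a1, Col4a2, Col4a5 and Col4a6, the heparan sulfate proteoglycans agrin (Agrn), perlecan (Hspg2) and collagen XVIII (Col18a1), and the Fraser complex genes Fras1, Frem1 and Frem2. They were chosen by name from 18193 genes with a symbol of their own on the array, and every probe set whose annotation gave exactly that symbol was taken. This gave 17 probe sets, 2 for each of 7 genes and 1 each for Col4a2, Frem1 and Frem2. Of these, 16 lay above the filter on dim probe sets, a mean signal of 14.7, and cover all 10 genes. The other, Agrn 1443980_at, read 5.2, 2.3 and 1.7 in knockout kidneys and 3.5, 4.4 and 2.8 in normal kidneys and was not tested.

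Basement membranes are thin sheets of matrix under epithelia and around blood vessels, in which a laminin network and a collagen IV network are linked by nidogens and heparan sulfate proteoglycans. In the early kidney they surround the branching ureteric bud and form around each new nephron. Each collagen IV molecule is a triple helix, with the chains of Col4a1 and Col4a2 together in nearly all basement membranes and those of Col4a5 and Col4a6 in fewer. Fras1, Frem1 and Frem2 form a complex on the epithelial side of the membrane, and mice that lack any of them can have fetal skin blisters and absent kidneys.

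The series compared whole kidneys of mouse embryos at embryonic day 12.5 on 6 single-colour Affymetrix arrays. There were 3 arrays of knockout kidneys (Hoxb7-Cre,Gfp with a beta-catenin allele that has loxP sites on either side of exons 2 to 6) and 3 of normal kidneys, whose genotype the labels describe only as normal. Hoxb7-Cre acts in the ureteric bud and its derivatives, so mesenchyme, stroma and vessels keep the allele intact. The dissected kidneys of each group were divided at random over 3 vials, which the labels call biological replicates without giving the number of animals, so p-values measure the spread between vials.

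Groups follow the sample titles, since the description field of the knockout samples repeats the wording for normal kidneys. The targeted gene Ctnnb1 did not settle this: its brightest probe set read 6777, 6779 and 6586 in knockout kidneys and 5707, 6760 and 6549 in normal kidneys (log2 difference 0.09, SE 0.08, limma adjusted p = 0.695). Where these probes lie relative to the deleted exons is not analysed here. All 17 genes of a kidney identity list that had a probe set passed the filter, among them Six2, Wt1, Ret and Foxd1. Array medians ran from 24.9 to 32.1, and the number of arrays limits the precision of every value.

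By their brightest probe set, 9 of the 10 genes were lower on average in knockout than in normal kidneys, against 50.6% of all genes, and 1, Frem2, was higher. None of the 16 probe sets passed limma's test with Benjamini-Hochberg adjustment over the whole array, where 157 of 27022 probe sets (0.581%) passed. The smallest adjusted p was 0.137, for Col4a2. At an unadjusted limma p under 0.05 there were 9 of the 16 probe sets, from 7 genes, against 11.5% of all probe sets, and with each probe set tested on its own variance there were 2 of 16, against 7.10% of all. At that unadjusted limma p, 8 of the 16 were lower, against 5.72% of all probe sets, and 1 of the 16 was higher, against 5.74%.

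The values of the 16 probe sets leaned to one side more than those of the array as a whole. Their median log2 difference was -0.45, against -0.01 over all probe sets tested, and 15 of 16 were below 0, against 51.9% of all. In 11 of 16, from 8 genes, all 3 knockout arrays read lower than all 3 normal arrays, which held for 8.69% of all probe sets. The reverse order held for 1 of 16, against 9.17% of all. For each of the 6 genes with a pair of kept probe sets, both differences had the same sign. These shares describe genes chosen with results of these arrays known, and no test was made over them.

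**Figure D1:**
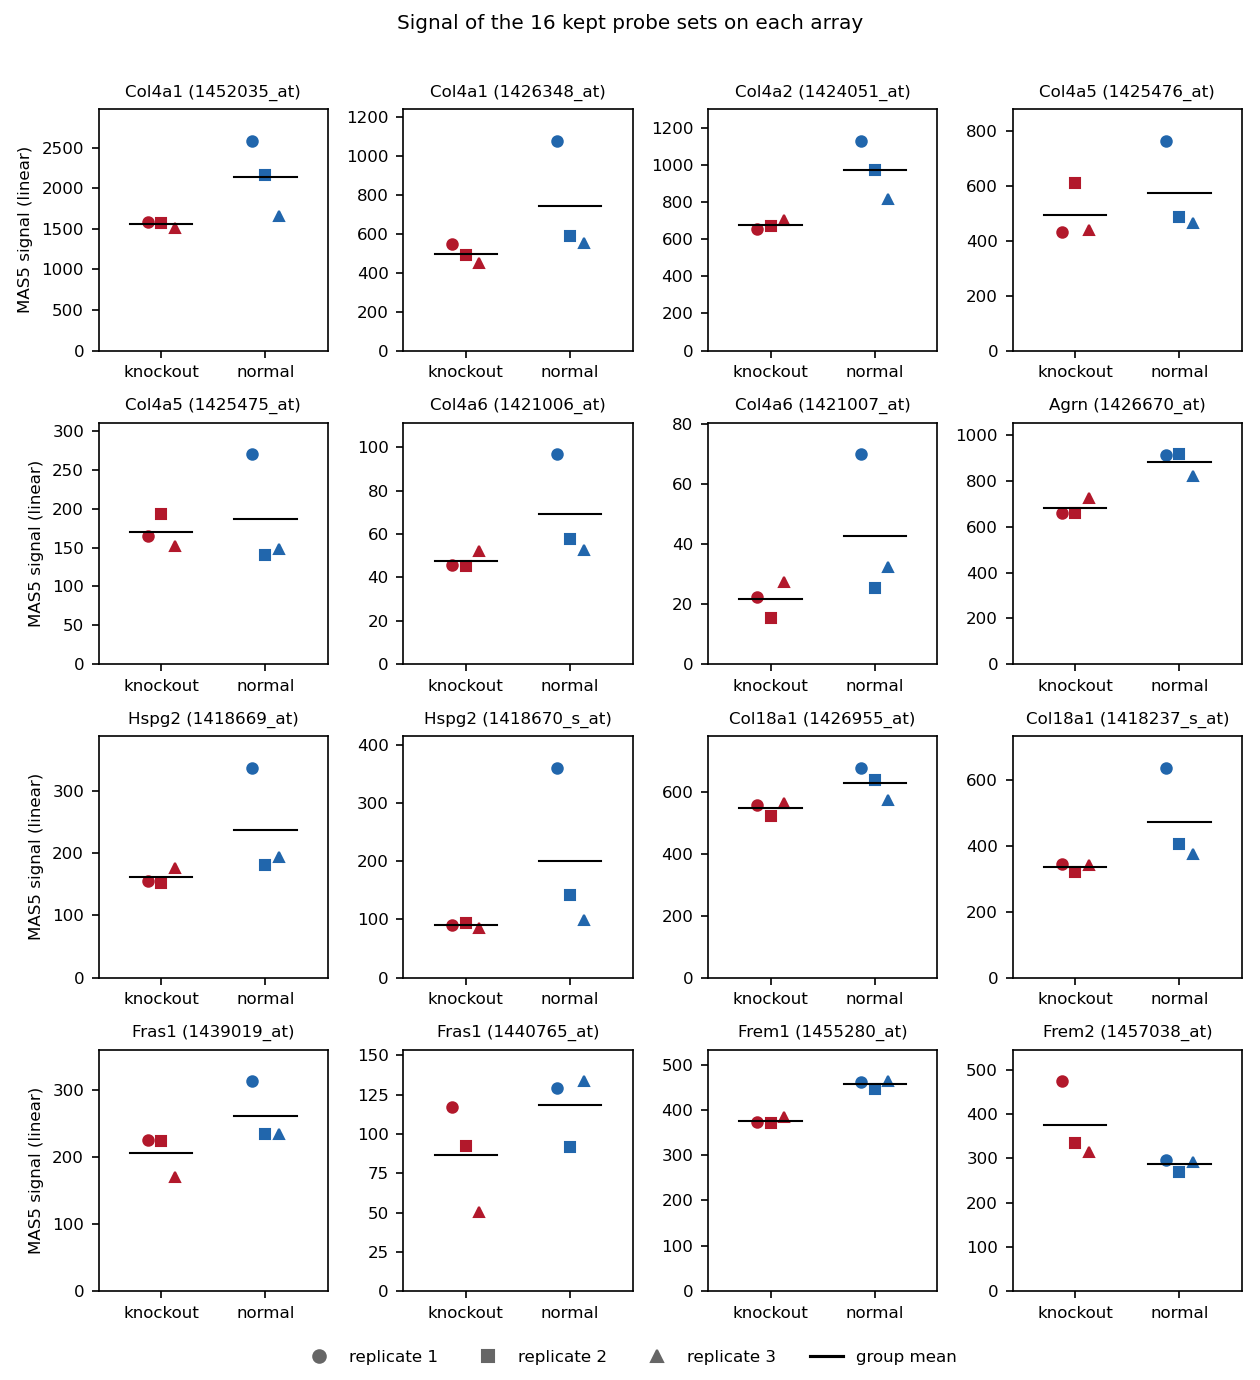
Deposited MAS5 signal on a linear axis from 0 for each of the 16 kept probe sets, with knockout arrays in red on the left, normal arrays in blue on the right, a symbol per replicate number and a bar at each group mean. Normal replicate 1 is the highest of the 6 arrays in 12 of 16 panels, and the Frem2 panel alone has all 3 knockout arrays above the normal ones.

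Normal replicate 1 stood apart for these genes and, by smaller amounts, for some of the related lists. It was the highest of the 6 arrays for 12 of the 16 probe sets, against 27.5% of all probe sets. With each probe set centred on its average over normal kidneys, the median of the 16 was -0.39, -0.42 and -0.40 (log2) on the knockout arrays, replicates 1 to 3, and 0.38, -0.19 and -0.25 on the normal arrays. The 3 knockout arrays were thus close to one another, below all normal arrays, and nearer to normal replicates 2 and 3 than to normal replicate 1. The medians of all probe sets on the same scale stayed between -0.04 and 0.04. On normal replicates 1 to 3 the median was 0.22, -0.08 and -0.09 for other structural genes of the basement membrane, 0.18, -0.06 and -0.09 for partners of the Fraser complex and 0.17, -0.09 and -0.06 for collagen IV assembly genes. For receptors it was 0.17, -0.08 and 0.12, and for heparan sulfate genes 0.08, 0.03 and -0.12. The spread followed: the median SD of log2 signal was 0.11 among knockout arrays and 0.36 among normal arrays for the 16 probe sets, against 0.16 and 0.22 for all probe sets.

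Without normal replicate 1 the median log2 difference of the 16 probe sets was -0.22, against -0.00081 for all probe sets, and 13 of 16 were below 0, against 50.2% of all. An unadjusted limma p under 0.05 was left for 5 of 16, all lower, against 10.6% of all, and 0 passed after Benjamini-Hochberg adjustment (smallest adjusted p 0.172). All 3 knockout arrays were below both remaining normal arrays for 11 of 16, against 13.4% of all.

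**Figure D2:**
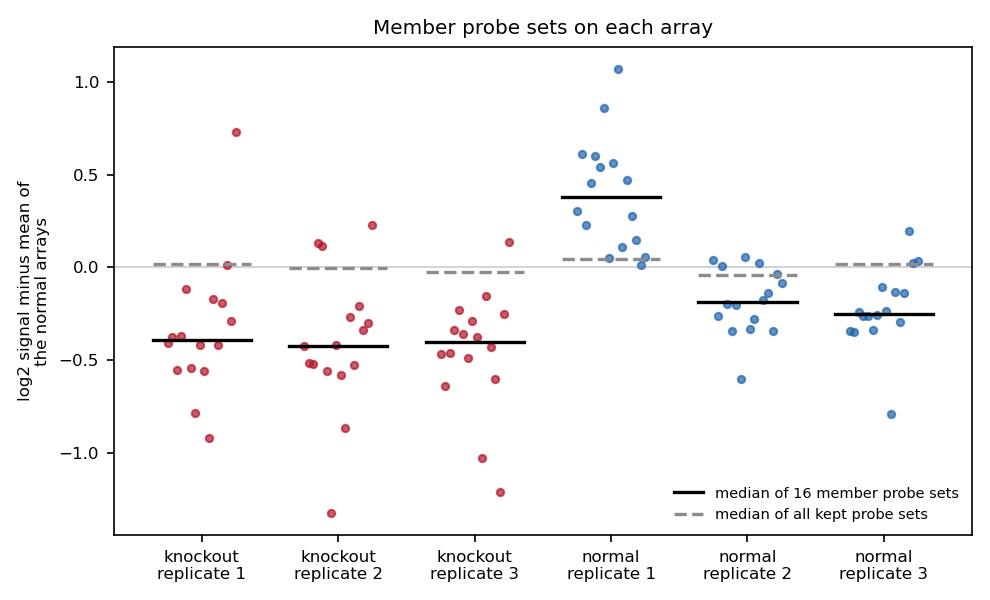
Log2 signal of each of the 16 probe sets on each array minus its mean over the normal arrays, with knockout arrays in red on the left, normal arrays in blue on the right, solid bars at the median of the 16 and dashed bars at the median of all kept probe sets. The solid bars lie from -0.42 to -0.39 on knockout arrays and at 0.38, -0.19 and -0.25 on normal arrays, while the dashed bars stay near 0.

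Col4a1 and Col4a2 encode the chains that join as 2 copies of the first and 1 of the second in the common form of collagen IV. Their genes lie head to head on mouse chromosome 8, with RefSeq starts 21 bases apart on opposite strands. By these starts the 5' ends overlap: the Col4a1 start, 11312826, lies inside Col4a2, and the Col4a2 start, 11312805, inside Col4a1. The promoter windows, 250 bases before to 50 after each start, are shown because they overlap. Any bearing of these windows on the values below was not tested. Both are given 5' to 3' on the gene's own strand from RefSeq's GRCm38.p6 table, Col4a1 at chr8:11312777-11313076 (minus strand) and Col4a2 at chr8:11312555-11312854 (plus strand). Capitals mark the 78 bases that both windows hold, which read as reverse complements of each other.
Col4a1: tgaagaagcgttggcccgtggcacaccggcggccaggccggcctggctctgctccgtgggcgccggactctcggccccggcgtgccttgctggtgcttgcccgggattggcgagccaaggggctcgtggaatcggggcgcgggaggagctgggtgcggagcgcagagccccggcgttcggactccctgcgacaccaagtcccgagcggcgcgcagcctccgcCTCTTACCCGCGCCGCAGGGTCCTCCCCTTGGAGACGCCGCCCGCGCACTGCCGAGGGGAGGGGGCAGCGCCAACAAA
Col4a2: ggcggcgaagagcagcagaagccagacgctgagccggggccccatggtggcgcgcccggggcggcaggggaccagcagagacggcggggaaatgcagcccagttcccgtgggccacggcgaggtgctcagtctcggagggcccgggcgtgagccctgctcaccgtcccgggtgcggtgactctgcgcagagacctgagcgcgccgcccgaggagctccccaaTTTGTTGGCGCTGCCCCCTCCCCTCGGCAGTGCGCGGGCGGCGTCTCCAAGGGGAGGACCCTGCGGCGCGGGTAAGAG

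The brighter Col4a1 probe set, 1452035_at, read 1580, 1566 and 1515 in knockout kidneys and 2587, 2158 and 1652 in normal kidneys. The groups do not overlap, the 3 knockout arrays are tightly grouped, and normal replicate 3 comes within a small distance of them. Its log2 difference was -0.43 (SE 0.14, 95% interval from -0.76 to -0.11, limma adjusted p = 0.322), and -0.28 (SE 0.11) without normal replicate 1. The dimmer Col4a1 probe set, 1426348_at, read 544.8, 492.9 and 452.1 in knockout kidneys and 1079, 588.1 and 553.7 in normal kidneys. Again the groups do not overlap, but here normal replicate 1 alone sits far above the rest. This gave a log2 difference of -0.51 (SE 0.23, limma adjusted p = 0.436), and -0.20 (SE 0.10) without that array.

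Col4a2, measured by 1424051_at, read 657.4, 671.6 and 701.9 in knockout kidneys and 1132, 970.4 and 818 in normal kidneys. Every normal array was above every knockout array by a clear margin. Group means were 677 ± 22.7 in knockout kidneys and 973 ± 157 in normal kidneys (SD, n = 3 each). The groups differed by -0.51 on the log2 scale (SE 0.12, 95% interval from -0.78 to -0.24), with a limma adjusted p of 0.137 that ranged from 0.0637 to 0.698 over the alternatives. Without normal replicate 1 it was -0.40 (SE 0.09, limma adjusted p = 0.172).

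Col4a5 and Col4a6 encode the chains of a further collagen IV network, found under collecting duct epithelium and around smooth muscle, and human COL4A5 is the gene most often mutated in Alport syndrome. They lie head to head on the X chromosome, with RefSeq starts 1343 bases apart and 5' ends that do not overlap. Their windows are shown to set beside the closely joined pair above, since they share no bases. They are RefSeq GRCm38.p6 sequences, Col4a5 at chrX:141475169-141475468 (plus strand) and Col4a6 at chrX:141474027-141474326 (minus strand), 5' to 3', with capitals on the GC box GGGCGG as read on either strand.
Col4a5: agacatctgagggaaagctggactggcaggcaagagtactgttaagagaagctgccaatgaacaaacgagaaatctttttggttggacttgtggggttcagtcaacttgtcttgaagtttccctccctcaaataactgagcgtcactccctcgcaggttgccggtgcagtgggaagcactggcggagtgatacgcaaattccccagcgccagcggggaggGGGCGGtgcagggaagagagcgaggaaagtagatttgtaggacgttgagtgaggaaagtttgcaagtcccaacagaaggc
Col4a6: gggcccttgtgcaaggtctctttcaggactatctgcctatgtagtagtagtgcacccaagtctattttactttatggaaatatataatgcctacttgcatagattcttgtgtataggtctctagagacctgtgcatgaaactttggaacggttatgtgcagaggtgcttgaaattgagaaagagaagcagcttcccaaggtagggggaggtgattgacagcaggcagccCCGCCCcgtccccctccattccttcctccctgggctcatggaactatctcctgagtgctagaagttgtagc

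Col4a5 was the gene of the 10 with the smallest differences. Its brighter probe set, 1425476_at, read 431.1, 610.8 and 441.2 in knockout kidneys and 765.6, 486.9 and 465.5 in normal kidneys. The groups overlap, with knockout replicate 2 above normal replicates 2 and 3. The log2 difference was -0.19 (SE 0.20, 95% interval from -0.65 to 0.27, limma adjusted p = 0.743), so differences of either sign lie within the interval. The other probe set, 1425475_at, read 164.6, 193.2 and 151.8 in knockout kidneys and 270.5, 140.7 and 148.8 in normal kidneys (log2 difference -0.08, SE 0.24). Without normal replicate 1 both differences were above 0, at 0.04 (SE 0.15) and 0.22 (SE 0.14).

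Col4a6 was dim on these arrays. Its brighter probe set, 1421006_at, read 45.7, 45.2 and 52 in knockout kidneys and 96.9, 57.9 and 52.6 in normal kidneys, groups that just fail to overlap. They differed by -0.49 on the log2 scale (SE 0.26, limma adjusted p = 0.506), and -0.22 (SE 0.21) without normal replicate 1. The dimmer one, 1421007_at, read 22.4, 15.4 and 27.5 in knockout kidneys and 70, 25.4 and 32.2 in normal kidneys, where knockout replicate 3 exceeds normal replicate 2. Its difference of -0.86 (SE 0.42, limma adjusted p = 0.466) has an interval from -1.81 to 0.08, and was -0.43 without normal replicate 1. The remaining collagen IV chains, Col4a3 and Col4a4, did not reach the filter, with highest signals of 15.4 and 9.9 on any array.

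Among the proteoglycans, agrin separated the groups with no single array far from its own group. Agrin carries heparan sulfate chains, links laminin to dystroglycan and is abundant in the glomerular basement membrane. Agrn 1426670_at read 662.1, 660.2 and 724.3 in knockout kidneys and 915.5, 918.5 and 821.4 in normal kidneys. All normal arrays were above all knockout arrays, and normal replicate 1 did not stand out from normal replicate 2. The means were 682 ± 36.5 in knockout kidneys and 885 ± 55.2 in normal kidneys (SD, n = 3 each). The log2 difference was -0.38 (SE 0.09, 95% interval from -0.57 to -0.18, limma adjusted p = 0.140), and it stayed between -0.43 and -0.35 with any single array left out.

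Perlecan, the large proteoglycan of nearly all basement membranes, gave differences that rest in good part on 1 array. Hspg2 1418669_at read 154.8, 152.5 and 175.7 in knockout kidneys and 337.8, 181.3 and 194.3 in normal kidneys. The other probe set, 1418670_s_at, read 91.1, 94.3 and 84.5 in knockout kidneys and 361, 141.9 and 99.5 in normal kidneys. In both, the groups do not overlap, and normal replicate 1 is far above the other 5 arrays. The log2 differences were -0.51 (SE 0.22, limma adjusted p = 0.434) and -0.94 (SE 0.39, limma adjusted p = 0.419). Without normal replicate 1 they were -0.22 (SE 0.12) and -0.40 (SE 0.19).

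Collagen XVIII is a collagen with heparan sulfate chains, and its C-terminal fragment is endostatin. Col18a1 1426955_at read 558.9, 523.5 and 565.7 in knockout kidneys and 680.7, 640.1 and 574 in normal kidneys. Col18a1 1418237_s_at read 345, 320.5 and 343.1 in knockout kidneys and 639.1, 407.8 and 376.7 in normal kidneys. Neither probe set has overlapping groups, and in the second the knockout arrays lie close together while normal replicate 1 is high. The log2 differences were -0.20 (SE 0.09, limma adjusted p = 0.460) and -0.46 (SE 0.18, limma adjusted p = 0.403), or -0.14 (SE 0.09) and -0.22 (SE 0.09) without normal replicate 1.

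The Fraser complex genes did not all lie on one side. Fras1 and Frem2 encode large membrane-bound proteins made by epithelia, and Frem1 a secreted relative that stabilises the complex. Frem1 1455280_at read 374.1, 370.8 and 383.8 in knockout kidneys and 461.1, 445.1 and 463.4 in normal kidneys. It varied least of the 16 probe sets within each group (SD of log2 signal), with means of 376 ± 6.76 in knockout kidneys and 457 ± 9.97 in normal kidneys (SD, n = 3 each) and no overlap. On the log2 scale the difference was -0.28 (SE 0.09, 95% interval from -0.47 to -0.09, limma adjusted p = 0.283), and -0.27 without normal replicate 1. The moderated SE is larger than the scatter of these 6 values alone would give, because limma draws each probe set's variance towards that of others of like signal.

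Fras1 1439019_at read 225.6, 223.3 and 170.2 in knockout kidneys and 313.1, 234.4 and 234.1 in normal kidneys, with knockout replicates 1 and 2 just under normal replicates 2 and 3. The log2 difference was -0.33 (SE 0.16, limma adjusted p = 0.470), and -0.19 (SE 0.15) without normal replicate 1. The second Fras1 probe set, 1440765_at, read 117.5, 92.3 and 50.3 in knockout kidneys and 129.2, 91.8 and 133.7 in normal kidneys. There the groups overlap, and the low value of knockout replicate 3 weighs most: the log2 difference was -0.51 (SE 0.30) with all arrays and -0.16 without that array.

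Frem2 was the exception. Frem2 1457038_at read 474.7, 335.4 and 315.4 in knockout kidneys and 297.3, 269.7 and 292.7 in normal kidneys. All knockout arrays were above all normal arrays, with knockout replicate 1 well above the others. The means were 375 ± 86.8 in knockout kidneys and 287 ± 14.8 in normal kidneys (SD, n = 3 each). On the log2 scale the difference was 0.37 (SE 0.15, 95% interval from 0.02 to 0.72, limma adjusted p = 0.422), 0.39 (SE 0.17) without normal replicate 1 and 0.18 without knockout replicate 1. Frem2 and Fras1 depend on each other for their place in the membrane, and their brightest probe sets differed in opposite directions here, neither past the test.

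**Figure D3:**
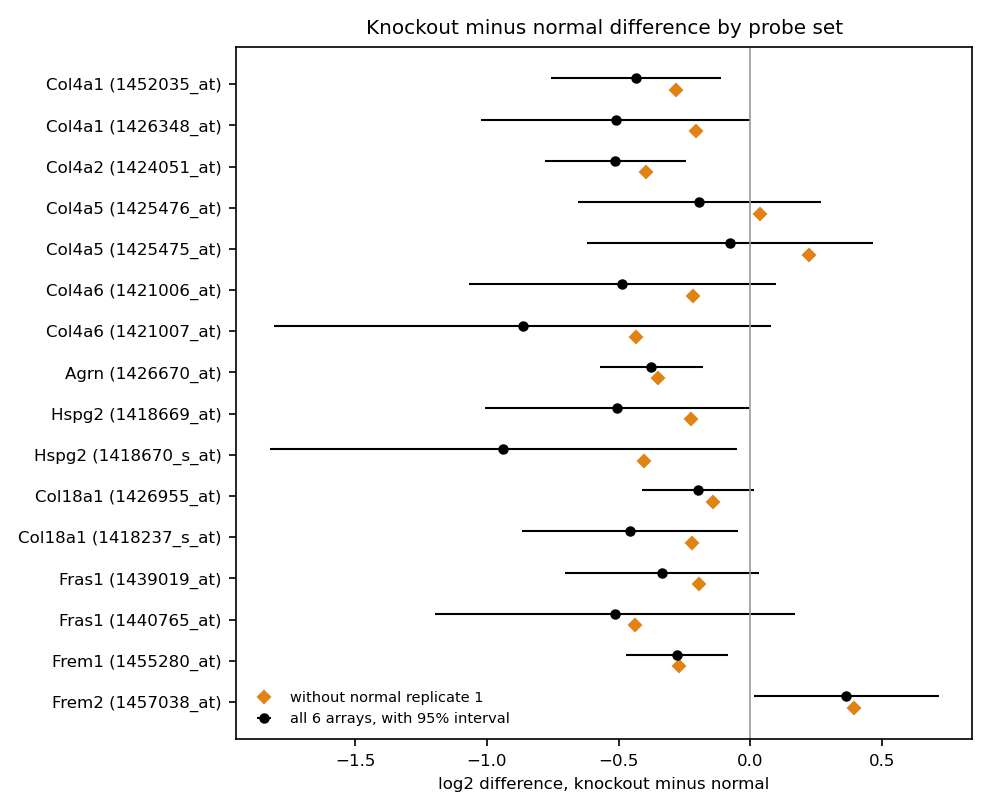
Log2 difference of knockout minus normal for each of the 16 kept probe sets, with black points and 95% intervals from the limma fit of all 6 arrays and orange diamonds for the fit without normal replicate 1. Frem2 alone lies above 0 with all arrays, the points of Agrn and Frem1 barely move without normal replicate 1, and both Col4a5 diamonds lie above 0.

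In whole kidneys, fewer cells of a type and less RNA per cell cannot be told apart, and several marker lists differed between the same arrays. Of the podocyte and early nephron markers, 8 of 9 kept genes were lower, with centred list medians of -0.30, -0.46 and -0.25 in knockout replicates 1 to 3 and 0.32, -0.12 and -0.08 in normal replicates 1 to 3. Their summed signal ran from 3162 to 3645 in knockout kidneys and from 3808 to 5440 in normal kidneys. Their median difference was -0.33, or -0.14 without normal replicate 1. The smallest limma p values in this list were those of Jag1, Wnt4 and Lhx1, genes of the early nephron. Of the podocyte genes, Podxl stood at -0.49, or -2.6e-05 without normal replicate 1, and Synpo at 0.18. The endothelial list, whose cells also make basement membrane, had 8 of 14 genes lower and a summed signal of 2724 to 3037 in knockout kidneys and 2466 to 3540 in normal kidneys. Its median difference was -0.09, and 0.05 with 5 of 14 lower without normal replicate 1. The ureteric epithelium list had 13 of 19 lower, with sums of 4951 to 7268 in knockout kidneys and 5760 to 6892 in normal kidneys. Its median difference was -0.10, or -0.09 without normal replicate 1. The centred list medians were 0.11, -0.34 and -0.12 in knockout replicates 1 to 3 and 0.02, 0.07 and -0.14 in normal replicates 1 to 3. Stroma markers had 5 of 12 lower, with sums of 17440 to 22550 in knockout kidneys and 16550 to 23390 in normal kidneys, and a median difference of 0.02, or 0.18 without normal replicate 1.

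Markers of muscle, blood and neural cells lay mostly on the other side. Skeletal muscle markers were higher for 10 of 11 genes, with sums of 848.8 to 6791 in knockout kidneys and 657.1 to 723.4 in normal kidneys. Knockout replicate 2 stood apart there, with centred medians of 1.11, 3.49 and 0.16 in knockout replicates 1 to 3, the last of them under the 0.25 of normal replicate 3. Macrophage markers were higher for 11 of 12, with sums of 1136 to 1665 in knockout kidneys and 575.5 to 1226 in normal kidneys. Their centred medians overlapped, at 0.38, 0.82 and 0.56 in knockout replicates 1 to 3 and 0.44, -0.58 and 0.18 in normal replicates 1 to 3. Erythroid markers were higher for 7 of 8, with sums of 15830 to 22210 in knockout kidneys and 12680 to 18220 in normal kidneys. Their centred medians overlapped too, at 0.51, 0.27 and 1.1 in knockout replicates and -0.31, 0.60 and -0.23 in normal replicates. Chromaffin and neural markers were higher for 7 of 11, with sums of 527.3 to 1662 in knockout kidneys and 491.2 to 2119 in normal kidneys. Their median was highest on normal replicate 1, as for the 10 genes and the endothelial and podocyte and early nephron lists, and their median difference was 0.03, or 0.74 without that array. No gene of these lists was listed at 0 on any array, and none of them passed the test. Their part in the values of the 10 genes was not tested.

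Among 27 other structural genes of the basement membrane with a probe set, 21 passed the filter, and by the brightest probe set 15 were lower and 6 higher in the knockout (median log2 difference -0.17, against -0.0029 over 12464 genes). Without normal replicate 1 the median was -0.10 and 12 of 21 were lower. None passed the test (limma, Benjamini-Hochberg adjustment, against 0.602% of all genes), while 7, of them 5 lower and 2 higher, had a limma p under 0.05 before adjustment (11.7% of all genes). The smallest p values belonged to the laminin chains Lama5 and Lama1 and to Egfl6, a secreted matrix protein that binds integrin. Lama5 read 89.3, 72.6 and 66 in knockout kidneys and 146.4, 118.6 and 103.9 in normal kidneys (log2 difference -0.69, SE 0.19, limma adjusted p = 0.222). Lama1 read 152.3, 111.7 and 108.9 in knockout kidneys and 167.6, 217.4 and 176.2 in normal kidneys (-0.60, SE 0.17, limma adjusted p = 0.259). Egfl6 was on the other side, at 190.9, 406.2 and 237.3 in knockout kidneys and 162.2, 144.6 and 151 in normal kidneys (0.79, SE 0.24, limma adjusted p = 0.283).

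The list of Fraser complex partners also holds the proteases Furin and Pcsk5 and the growth factors Gdf11 and Gdnf. In this list 8 of 9 kept genes were lower and 1, Pcsk5, was higher. Its median log2 difference was -0.32, or -0.14 without normal replicate 1. None passed, against 0.602% of all genes, and 3 had an unadjusted limma p under 0.05, all lower, against 11.7% of all genes. Of these, Itga8, the integrin chain that receives nephronectin on the mesenchyme, read 977.7, 905.4 and 1029 in knockout kidneys and 1202, 1089 and 1122 in normal kidneys (-0.23, SE 0.08, limma adjusted p = 0.371). Hmcn1, a long matrix protein of the fibulin family, stood at -0.32 (SE 0.14), with overlapping groups. Fbln1, which binds laminin and nidogen, stood at -0.27 (SE 0.12), or -0.14 without normal replicate 1, with further probe sets at -0.30 and 0.06. Grip1, the scaffold that brings Fras1 and Frem2 to the cell surface, read 72.3, 71.5 and 73.5 in knockout kidneys and 102.9, 99 and 73.9 in normal kidneys (-0.33, SE 0.18, limma adjusted p = 0.519), with normal replicate 3 at the knockout level and a second probe set at 0.15.

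The lists for genes that make, modify and receive these proteins had medians nearer 0. Of 20 genes for collagen IV assembly and modification, 15 were lower and 5 higher (median -0.10, or -0.04 without normal replicate 1), 0 passed and 2 had an unadjusted limma p under 0.05, both lower, a share near the 11.7% of all genes. The lysyl hydroxylase Plod1 read 130.6, 161 and 126.5 in knockout kidneys and 246.5, 176 and 177.9 in normal kidneys (-0.51, SE 0.17, limma adjusted p = 0.328). The prolyl hydroxylase subunits P4hb and P4ha1 stood at -0.18 (SE 0.07) and -0.29 (SE 0.13), with groups that do not overlap, and at -0.14 and -0.18 without normal replicate 1. Of 22 kept genes for heparan sulfate synthesis and editing, the modification that agrin, perlecan and collagen XVIII carry, 16 were lower and 6 higher (median -0.08), 0 passed and 3 had an unadjusted limma p under 0.05, again near the 11.7% of all genes. Without normal replicate 1 the median was -0.0095 and 12 of 22 were lower. The 3 with an unadjusted limma p under 0.05 were the sulfotransferase Hs3st6 (-0.57, SE 0.21), the linker enzyme B3galt6 (-0.40, SE 0.17, other probe sets at 0.03 and -0.16) and the extracellular sulfatase Sulf2 (0.27, SE 0.11, or 0.15 without normal replicate 1, other probe sets at 0.05 and 0.08).

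Receptors had 6 of 13 genes lower and 7 higher (median 0.06, or 0.02 without normal replicate 1), with 0 past the test, against 0.602% of all genes, and 5 at an unadjusted limma p under 0.05, 3 lower and 2 higher, against 11.7% of all genes. Dag1, dystroglycan, to which agrin and perlecan bind, read 611.8, 591.6 and 612.8 in knockout kidneys and 907.5, 826.2 and 679.8 in normal kidneys. Its groups do not overlap, and the log2 difference was -0.40 (SE 0.11, limma adjusted p = 0.236), with further probe sets at -0.21, -0.11 and 0.03. The laminin receptor chain Itga3 stood at -0.45 (SE 0.17), with further probe sets at -0.31 and 0.49. The 2 higher ones were Lgals3, which was dim, at 1.08 (SE 0.43), and Ddr2 at 0.35 (SE 0.15), with a further probe set at 1.125.

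**Figure D4:**
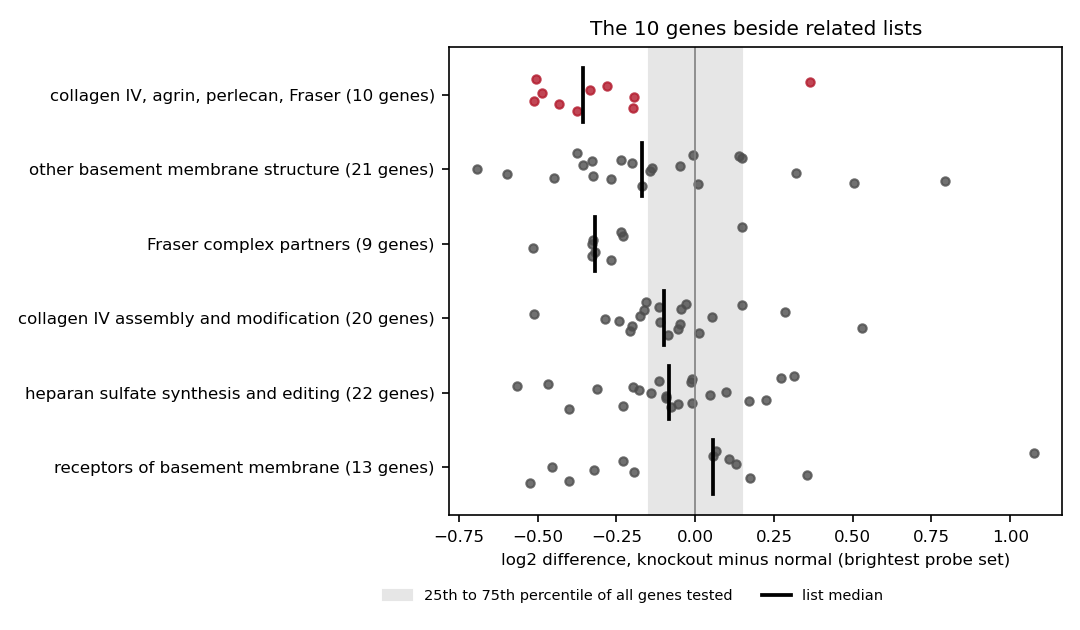
Log2 difference of knockout minus normal by the brightest kept probe set for the 10 genes and for 5 related lists, a point per gene and a bar at each list median, with the range between the 25th and 75th percentiles of all 12464 genes shaded, from -0.15 to 0.15. All 9 genes of the 10 that are lower lie to the left of the shaded band and Frem2 to the right of it, while the medians of assembly, heparan sulfate and receptor genes lie within the band. Itga8, Npnt, Fbln1 and Hmcn1 are in more than 1 list.

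The genes whose log2 signal over the 6 arrays was most like that of Col4a1 were Exosc10, Erf, Cul7, Frmd8 and Safb2, with Pearson r from 0.990 to 0.996 and Spearman rho of 0.94 each. All 5 share its order of normal arrays, highest in replicate 1 and lowest in replicate 3, and its closely grouped knockout arrays, which lie near or below normal replicate 3. Col4a2 came at rank 87 of 12463 genes (r = 0.96, rho = 0.77), Col18a1 at rank 137 (r = 0.95, rho = 0.83) and Frem2 at rank 9479 (r = -0.49, rho = -0.60). With 6 arrays in 2 groups such values describe these arrays only.

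Promoter windows were found in the RefSeq table for 9 of the 10 genes, 12 windows in all. The GC box GGGCGG, read on both strands, was in 8 of 12, against 35.7% of 32851 windows, with 12 matches in one of the Agrn windows. The 1 match of the Col4a1 window lies in the stretch shared with Col4a2, so both windows count the same site. These shares were not adjusted for GC content, which ran from 46.3% to 83.3% over the 12 windows. The letters CCAAT, on both strands, were in 6 of 12, against 37.4% of all windows. The letters bound by the TCF/LEF factors with which beta-catenin acts (CTTTG and then 2 bases that are each A or T, on both strands) were in 3 of 12, against 16.9% of all, namely 1 Agrn window and both Frem1 windows. Of the printed windows, none holds them. A match of letters is a description and not a binding site.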

How the data were processed

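Whole kidneys of mouse embryos at embryonic day 12.5 were measured on 3 knockout and 3 normal arrays, grouped by sample title. The authors deposited 1 linear signal intensity per probe set, made with MAS5 per the submitters' processing notes; version and parameters not given in the sources used here. Array medians spanned 0.37 on the log2 scale, so no further scaling was applied. Before log2, a floor of 1.7 (10th percentile of the values above 0) replaced the 15 zeros. MAS5 subtracts mismatch signal, so dim values scatter widely.

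Of 45101 probe sets, 64 controls were left out, and 27022 with a mean log2 signal above the 40th percentile were tested with limma 3.58.1 in R 4.3.3 (lmFit, eBayes with an intensity trend; Benjamini-Hochberg adjustment over the 27022, threshold 0.05). The fit was also run on simulated data with equal spread in both groups, which checks the code and not its use on these arrays. The members, lists, tests and naming rules were chosen with earlier results of these data known. Named genes are every member and the 5 most like Col4a1 by Pearson r. From each related list, and from the podocyte and early nephron list, they are the 3 with the smallest limma p. Grip1, Col4a3, Col4a4, Podxl, Synpo, Foxc2, Wt1, Lgals3, Ddr2, Furin, Pcsk5, Gdf11 and Gdnf were named for their roles or after their values were seen. Alternatives covered scaling, filter, a pseudocount of 5.1, variance model, the replicate number as a block and leaving out arrays.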

Additional observations from a re-analysis of the deposited data

How the results depend on the processing

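No member probe set passed the threshold under any of the 18 alternatives, or in the main fit at an adjusted p under 0.1. Without normal replicate 3, Col4a1 1452035_at and Col4a2 1424051_at had limma adjusted p of 0.0642 and 0.0637. The count of member probe sets at an unadjusted p under 0.05, 9 with all arrays, was 3 without the intensity trend, 2 with a Welch test, from 5 to 10 with single arrays left out, and 4 without replicate 1 of both groups, an alternative chosen after seeing the data. Their median log2 difference was between -0.52 and -0.34, except at -0.22 without normal replicate 1 and -0.27 without replicate 1 of both groups. The count of all probe sets past the threshold, 157, was 253 at an adjusted p under 0.1, 41 without the intensity trend, 0 with a Welch test, 49 to 148 with single arrays left out and 31 without replicate 1 of both groups. The sign turned for Col4a5 alone: 1425475_at was at 0.049 with array weights, from -0.25 to 0.22 with single arrays left out (0.000655 without knockout replicate 3 and 0.22 without normal replicate 1) and 0.24 without replicate 1 of both groups. Col4a5 1425476_at ranged from -0.35 to 0.04 with single arrays left out (0.04 without normal replicate 1) and was 0.12 without replicate 1 of both groups. The cause was not tested beyond the fewer arrays. With the replicate block 10 member probe sets had an unadjusted limma p under 0.05 and 109 probe sets passed. Deviations of same-numbered arrays from their group means correlated at 0.08, -0.11 and -0.20. With 3 arrays per group this cannot settle whether the replicate numbers pair the samples. Signal near background limits Col4a6.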
